A study of Mus musculus with 1790 samples.

Results

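The CGE-library neurons described here fell into 2 groups drawn from 1 droplet library of the caudal ganglionic eminence (CGE) of the mouse embryo at E14.5. The first group held 676 cells with at least 1 unique molecular identifier (UMI, a count of 1 captured RNA molecule) of Lhx6 and none of Prox1, called Lhx6 cells below. The second held 760 cells with no UMI of Lhx6, Nkx2-1 or Sst and at least 1 of Nr2f2 or Prox1, called Nr2f2/Prox1 cells. Together these 1436 cells were part of 2738 cells called neurons among 4115 CGE cells, and of 8009 cells in the whole series. A cell was called a neuron when its summed UMIs of 7 genes of postmitotic GABAergic neurons (Gad1, Gad2, Dlx5, Dlx6 and the cytoskeletal genes Dcx, Tubb3, Stmn2) exceeded those of 7 genes of dividing progenitors (Top2a, Mki67 and the radial glia genes Nes, Fabp7, Sox9, Hes1, Hes5). Both groups were therefore chosen by measured values of these 19 genes, which were left out of the comparison across genes. Of the other neurons, 305 had UMIs of both Lhx6 and Prox1, 671 had Nkx2-1 or Sst without Lhx6, and 326 had none of the 5 markers (Lhx6, Nkx2-1, Sst, Nr2f2, Prox1).

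The study profiled single mouse cells of the preoptic area (POA) and CGE in the embryo and interneurons of the cortex after birth. The CGE cells came from wild-type embryos without treatment, labelled C57BL/6, whose CGE was microdissected, digested with trypsin and loaded on a 10x droplet chip. The number of embryos pooled was not given in the sources used here, and no animal was named. Both groups were thus parts of 1 sample, so no test between them was possible, and every value below describes this library. A second droplet library, of the POA of wild-type E14.5 embryos prepared in the same manner, gave 285 Lhx6 cells and 152 Nr2f2/Prox1 cells by the same rule.

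Cortical interneurons are born in the ventral telencephalon. Those of the medial ganglionic eminence (MGE) depend on the homeodomain factor Nkx2-1 in their progenitors and on its target Lhx6 after cell cycle exit, and many later make somatostatin (Sst) or parvalbumin. Those of the CGE carry the nuclear receptor Nr2f2 (COUP-TFII) and the homeodomain factor Prox1, and many express the serotonin receptor subunit Htr3a. MGE-born cells migrate through the CGE on their way to the caudal cortex, and the neighbouring lateral eminence gives rise to projection neurons of the striatum and amygdala that carry Meis2, Isl1, Ebf1 and Foxp1. Nr2f2 is not restricted to CGE-born cells, since a part of the MGE lineage carries it too.

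Depth was alike in both groups. The Lhx6 cells held 2528 to 36574 UMIs (median 5253) and the Nr2f2/Prox1 cells 2518 to 29322 (median 5234), which summed to 4260397 and 4357622 UMIs. Mitochondrial transcripts took 3.84% and 3.92% of the UMIs, and the neuronal genes of the rule summed to 7042 and 6599.7 CPM (UMIs of a gene scaled to a library of 1000000 UMIs). The CGE and POA libraries shared 12 cell barcodes, of which 1 lay in each group. All intervals below are 95% intervals, Poisson for levels and Clopper-Pearson for shares of cells, and cover counting error only.

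The groups differed by definition in Lhx6, Prox1, Nkx2-1 and Sst, but not every marker was set by the rule. Nr2f2 was not used to choose the Lhx6 cells, and 424 of them (62.7%, interval 59.0 to 66.4) had a UMI of it, beside 66.0% of all CGE neurons. Its level was 319 CPM in the Lhx6 cells and 560 CPM in the Nr2f2/Prox1 cells, where the rule used it. In the Lhx6 cells Nkx2-1 was found in 273 cells (40.4%, 36.7 to 44.2) at 223 CPM, and Sst in 225 cells (33.3%, 29.7 to 37.0) at 716 CPM. Of the Nr2f2/Prox1 cells, 468 had Nr2f2 alone, 62 had Prox1 alone and 230 had both.

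Among all 2738 neurons, Prox1 was found about as often with Lhx6 as without it, in 31.1% of 981 neurons with an Lhx6 UMI and in 27.6% of 1757 without. When each cell was thinned at random to 2970 UMIs, the shares were 16.7% and 18.5%, in the other order. Nkx2-1 by contrast was found in 46.8% of neurons with Lhx6 and 20.7% of those without (38.0% and 17.4% after thinning). Nr2f2 was found in 66.8% and 65.6% before thinning and in 46.1% and 53.5% after it. These are shares of cells of 1 library and carry no test.

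Single UMIs decided many of these calls. Of the Lhx6 cells, 390 had 1 Lhx6 UMI, 157 had 2 and 129 had 3 or more, up to 10. A single Prox1 UMI kept 185 neurons with Lhx6 out of the group. Of the Nr2f2/Prox1 cells, 222 had 1 UMI of both genes together, and 508 neurons with Nr2f2 or Prox1 and no Lhx6 were left out for Nkx2-1 or Sst, 254 of them for a single UMI. On the line that separates neurons from progenitor-like cells, 31 neurons lay 1 UMI above it and 41 cells lay on it.

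Free RNA gives UMIs in droplets whose cell does not make the gene, and the 1336 progenitor-like cells (more progenitor than neuronal UMIs, median 7104 UMIs) are given beside the neurons. Some of them may make these genes, so their shares are not a measure of free RNA alone. Lhx6 was found in 11.9% of them and in 35.8% of the neurons, Sst in 17.1% and 25.7%, and Prox1 in 18.6% and 28.9% (neurons, median 5341 UMIs). At 2970 UMIs per cell the shares were 5.56% and 24.3% for Lhx6, 6.54% and 17.8% for Sst, and 8.18% and 18.1% for Prox1. Hbb-y, an embryonic globin of red blood cells, was found in 44.4% of Lhx6 cells, 38.9% of Nr2f2/Prox1 cells and 44.2% of progenitor-like cells. Its part, and that of other free RNA, in the differences below was not tested.

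Across 6446 genes with at least 20 CPM in one of the groups, 15 were at least 2-fold higher in the Lhx6 cells (0.233% of those compared) and 2 in the Nr2f2/Prox1 cells (0.031%), on log2 folds with 10 CPM added. The median log2 fold was -0.002, and 98.0% of genes lay within 0.5 of zero. Most of the named factors of the MGE lineage were higher in the Lhx6 cells, led by the neuropeptide gene Npy. Sp8, a zinc finger factor of the CGE and lateral eminence, and Meis2 were the 2 genes past the line on the other side.

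**Figure D1:**
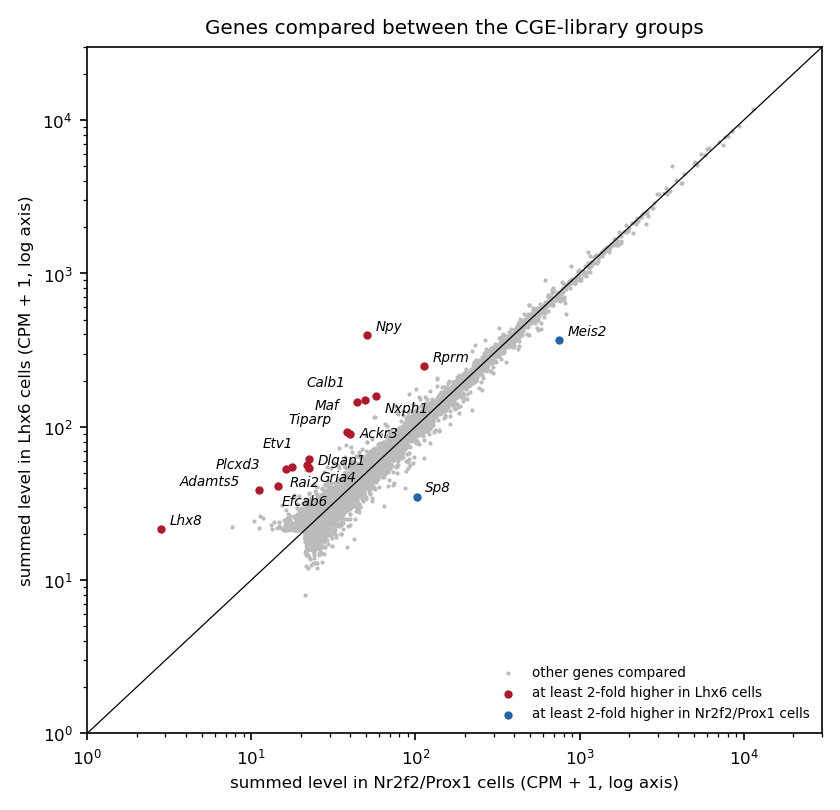
Summed level (CPM + 1, both axes logarithmic) of each of the 6446 genes compared, in Nr2f2/Prox1 cells (x) and Lhx6 cells (y) of the CGE library, with the line of equal levels. The cloud follows the line, with 15 genes (red) above it past 2-fold and 2 (blue) below it.

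Npy (neuropeptide Y, chr6:49822710-49829507 on GRCm38) stood apart. It reached 396 CPM (378 to 416) in the Lhx6 cells and 50.0 CPM (43.6 to 57.1) in the Nr2f2/Prox1 cells, a log2 fold of 2.76. It was found in 311 Lhx6 cells (46.0%), where those cells had a median of 3 UMIs and up to 39, and in 131 Nr2f2/Prox1 cells (17.2%), with a median of 1 and up to 10. At least 5 UMIs were present in 17.2% of the Lhx6 cells and 1.05% of the Nr2f2/Prox1 cells. Neurons with both Lhx6 and Prox1 lay between the groups at 254 CPM, neurons with none of the 5 markers at 93.6 CPM, and progenitor-like cells at 36.4 CPM.

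Maf, a transcription factor of postmitotic MGE interneurons, was at 145 CPM (134 to 157) in the Lhx6 cells and 42.9 CPM (37.0 to 49.5) in the others. It was found in 42.8% and 15.9% of the cells (log2 fold 1.55). Nxph1, a secreted ligand of α-neurexins, was at 157 CPM (146 to 170) and 56.5 CPM (49.6 to 64.0), in 45.3% and 18.2% of the cells (log2 fold 1.33). Calb1, the calcium-binding protein calbindin, was at 149 CPM (137 to 161) and 48.2 CPM (41.9 to 55.2), log2 fold 1.45. For these 3 genes neither the levels nor the shares had overlapping intervals. They were chosen by their fold, so this is no separate support.

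Lhx8, a LIM-homeodomain factor of subpallial cholinergic and other ventral neurons, was rare. It was at 20.4 CPM (16.4 to 25.2) in the Lhx6 cells and 1.84 CPM (0.793 to 3.62) in the others. Its 87 UMIs came from 51 Lhx6 cells (7.54%), against 8 UMIs in 8 Nr2f2/Prox1 cells. Etv1, an ETS factor, was at 61.0 CPM (53.8 to 68.9) and 21.3 CPM (17.2 to 26.1), log2 fold 1.18. In neurons with none of the 5 markers Lhx8 was at 1.32 CPM and Etv1 at 19.8 CPM, near the levels of the Nr2f2/Prox1 cells.

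The other genes on this side have less tie to a lineage. Adamts5, a secreted metalloprotease, was at 37.6 against 10.1 CPM, and Tiparp, a mono-ADP-ribosyltransferase, at 91.3 against 37.2 CPM. Dlgap1, a scaffold of excitatory postsynaptic sites, was at 55.4 against 20.9 CPM, and Gria4, an AMPA receptor subunit, at 53.0 against 21.3 CPM. Ackr3, which binds the guidance chemokine Cxcl12, reached 89.0 CPM (80.2 to 98.4), with 38.8 CPM (33.2 to 45.1) in the others. Rprm, a gene linked to cell cycle arrest, was at 248 against 112 CPM. Plcxd3 (a phospholipase-domain protein), Rai2 and Efcab6 had log2 folds of 1.30, 1.26 and 1.10. In none of these 9 did the count intervals of the groups overlap, but the genes were chosen by their fold, so this is no separate support.

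On the other side, Sp8 (chr12:118846329-118852576) was at 101 CPM (92.0 to 111) in the Nr2f2/Prox1 cells and 34.0 CPM (28.7 to 40.0) in the Lhx6 cells, a log2 fold of -1.34. It was found in 29.9% and 12.6% of the cells, and in 21.0% and 7.09% after thinning. Meis2, a TALE homeodomain factor of striatal and other lateral eminence neurons, was abundant on both sides, at 749 CPM (724 to 776) and 366 CPM (348 to 385), log2 fold -1.01. It was higher than in either group, at 1289.8 CPM, in the neurons with none of the 5 markers. Sp8 was not, at 40.2 CPM in those neurons.

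**Figure D2:**
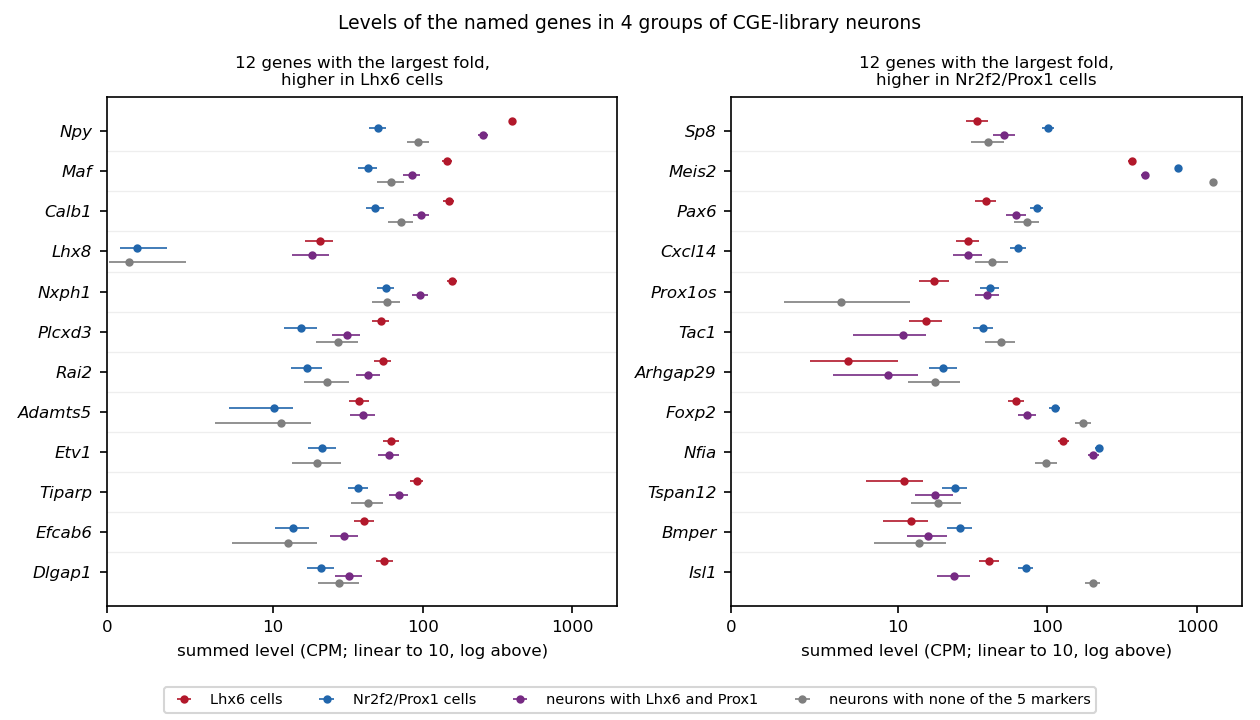
Summed level (CPM, linear up to 10 and logarithmic above) of the 12 genes with the largest log2 fold in each direction, in Lhx6 cells (red), Nr2f2/Prox1 cells (blue), neurons with Lhx6 and Prox1 (purple) and neurons with none of the 5 markers (grey), with 95% Poisson intervals. Npy, Maf, Calb1 and Nxph1 of the neurons with both markers lie between the 2 groups, and Meis2 and Isl1 are highest in the neurons with none. The neurons with both markers were deeper than either group (median 6766 UMIs).

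Of the next genes, Pax6, a paired homeodomain factor, reached 84.9 CPM (76.5 to 94.0), with 38.7 CPM (33.0 to 45.1) in Lhx6 cells, and Cxcl14, a chemokine kept by a part of CGE-born interneurons, reached 63.8 CPM (56.5 to 71.8), with 29.3 CPM (24.4 to 35.0) in Lhx6 cells. Foxp2 (112 against 61.5 CPM) and Nfia (221 against 128 CPM), a forkhead and a nuclear factor I gene, had log2 folds of -0.77 and -0.75. Arhgap29 lay at -0.83, and Tspan12, Bmper and Isl1 at -0.70 to -0.69. Prox1os, at 41.3 against 17.6 CPM, is annotated antisense to Prox1 and overlaps it by 419 bases. It is thus close to a gene of the rule.

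Tac1, the precursor of substance P, was at 37.2 against 15.5 CPM, but was found in 27 cells of each group. A single Nr2f2/Prox1 cell held 43 UMIs, 26.5% of the group's total. Nts, the neurotensin precursor, was at 19.5 CPM in the Nr2f2/Prox1 cells, just under the minimum. Its UMIs lay in 9 cells, with 80.0% of them in 1 cell. Both genes were thus set by a few cells. Without the minimum of 20 CPM, Nts passed 2-fold on the Nr2f2/Prox1 side. Only Npy and Tac1 of 16 listed neuropeptide genes reached the minimum.

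The start sites of the genes past 2-fold were read for letters that factors of these lineages bind. Promoters (250 bases before to 50 after a start, RefSeq on GRCm38.p6) were on hand for 12 of the 17 genes, 16 in all. The letters TAATTA, a core that LIM and other homeodomain factors can bind, stood on either strand in 0 of 12 promoters of the Lhx6 side, in 1 of 4 of the other side and in 5.29% of all 32851 promoters. The half-site of Maf factors, TGCTGA, stood in 3 of 12, 1 of 4 and 19.5%, counting both strands. The promoter of Npy, the gene with the largest fold, and the one of 3 Sp8 promoters that holds both motifs are shown, with motif letters in capitals.
Npy (chr6:49822460-49822759, plus strand): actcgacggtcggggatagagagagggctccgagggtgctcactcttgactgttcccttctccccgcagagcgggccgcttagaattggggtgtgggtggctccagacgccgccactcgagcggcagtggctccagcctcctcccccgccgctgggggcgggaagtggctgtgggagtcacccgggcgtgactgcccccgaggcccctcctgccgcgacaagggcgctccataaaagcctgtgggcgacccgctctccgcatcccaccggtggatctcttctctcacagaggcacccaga
Sp8 (chr12:118847309-118847608, plus strand): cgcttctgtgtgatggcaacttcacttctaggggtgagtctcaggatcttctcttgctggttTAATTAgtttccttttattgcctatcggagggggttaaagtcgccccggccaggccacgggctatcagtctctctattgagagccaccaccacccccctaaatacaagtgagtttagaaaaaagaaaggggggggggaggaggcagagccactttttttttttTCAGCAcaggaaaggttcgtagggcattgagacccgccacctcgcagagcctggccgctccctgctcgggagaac
These matches are descriptions of the letters, and no binding was measured.

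By gene list, the MGE-lineage and projection-neuron genes lay farthest from the median of all genes. Of 13 MGE-lineage genes compared, 12 were higher in the Lhx6 cells, 5 of them past 2-fold (Npy, Maf, Lhx8, Nxph1 and Etv1), with a median log2 fold of 0.60 beside -0.002 for all genes. Sox6 (175 against 101 CPM) and Satb1 (103 against 64.5 CPM), factors that act downstream of Lhx6, had log2 folds of 0.74 and 0.60. Satb1 was at 149 CPM in Lhx6 cells with Sst and 74.2 CPM in those without, and the rule kept Sst out of the other group. Mef2c, Cux2 and Zeb2 lay at 0.47 to 0.56. Tspan7 was the exception at -0.42. Lhx8 and Etv1 did not pass 2-fold once Lhx6 cells with Nkx2-1 or Sst were left out, as they were from the other group (log2 folds of 0.27 and 0.20), while Npy, Maf and Nxph1 did. These lists were chosen with earlier results of these data known, so their counts are descriptions.

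The CGE-lineage genes were less separated. Of 7 compared, 5 were higher in the Nr2f2/Prox1 cells, with 1 past 2-fold (Sp8) and a median of -0.36. Nfix and Nr2f1, a nuclear factor I gene and a relative of Nr2f2, were at -0.67 and -0.36. Htr3a was somewhat higher in the Nr2f2/Prox1 cells (log2 fold -0.23), at 426 CPM (407 to 446) against 362 CPM (345 to 381) in the Lhx6 cells. By contrast, more Lhx6 cells had a UMI of it (52.7% against 42.9%). Nr2e1 (0.33) and Npas3 (0.04) lay on the Lhx6 side. Adarb2, Npas1, Calb2, Cck, Reln, Scgn, Sncg and Synpr, markers of mature CGE-born types, were all below 20 CPM in both groups.

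Genes of striatal and amygdalar projection neurons were higher in the Nr2f2/Prox1 cells in 11 of 13 cases, with a median of -0.50 and 1 gene past 2-fold (Meis2). Ebf1 reached 254 CPM (239 to 269), with 173 CPM (160 to 185) in Lhx6 cells, Foxp1 at 122 against 77.5 CPM and Isl1 at 71.8 against 40.8 CPM. All 3 were far higher in the neurons with none of the 5 markers, at 870, 392 and 202 CPM. Shares of cells differed less than levels, at 25.3% against 22.3% for Ebf1. Leaving out cells with a UMI of Isl1, Ebf1 or Foxp1 left 386 and 399 cells, with 20 genes past 2-fold on the Lhx6 side and 8 on the other, with 13 of the 15 and both Meis2 and Sp8 among them.

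**Figure D3:**
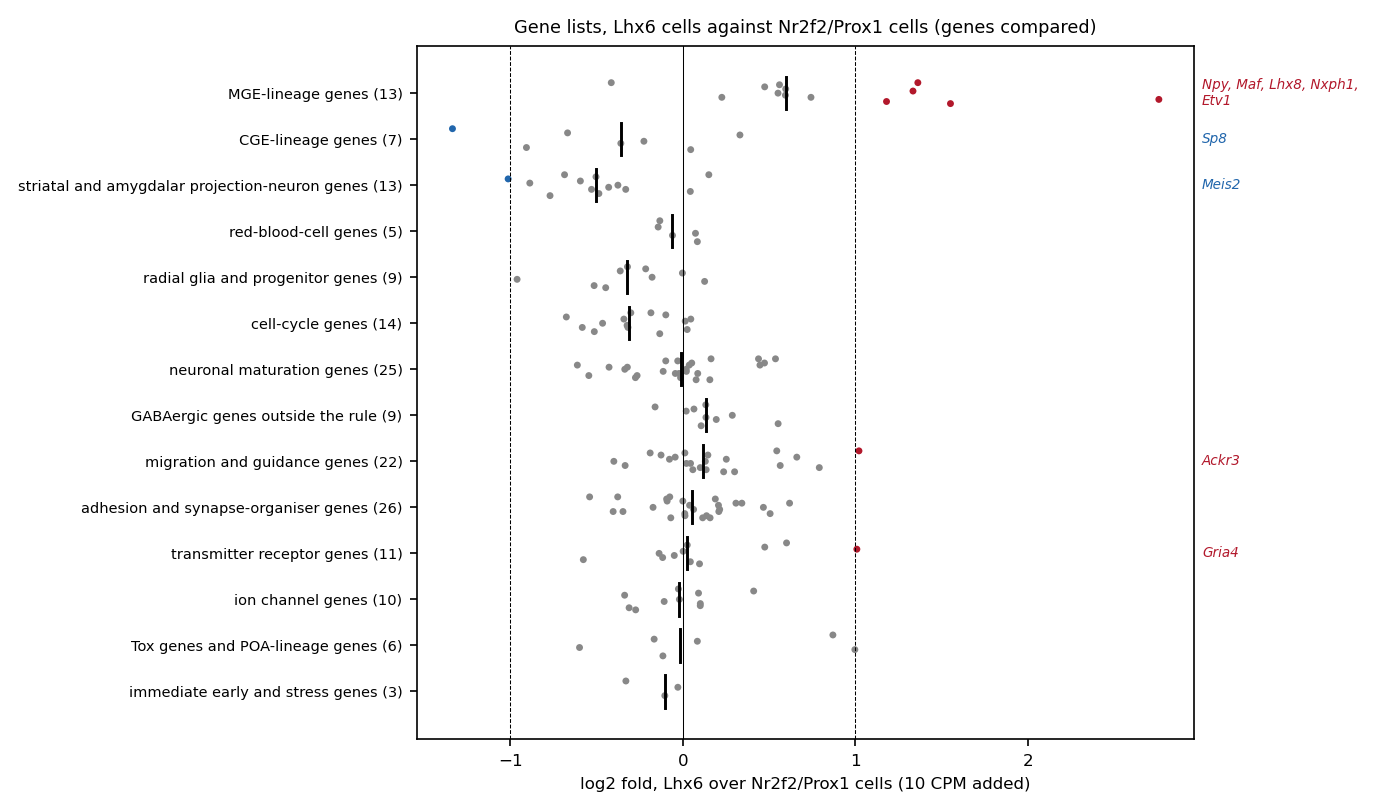
Log2 fold of Lhx6 over Nr2f2/Prox1 cells (10 CPM added) for each gene compared, by list, with the number of genes in brackets; lists of under 3 genes are not drawn. Black bars are medians and dashed lines mark 2-fold; genes past 2-fold are named at the right (red, higher in Lhx6 cells; blue, higher in Nr2f2/Prox1 cells). The MGE-lineage list lies to the right, with a median of 0.60, and the projection-neuron list to the left, with a median of -0.50.

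Lists for other cells and states gave the following. Cell-cycle genes were lower in the Lhx6 cells in 11 of 14 cases, at a median of -0.31 and with none past 2-fold. Their summed level was 3008 CPM against 3615 CPM, with Ccnd2 at 545 against 822 CPM and Mcm2 at 41.8 against 72.7 CPM. Radial glia and progenitor genes followed, with 8 of 9 lower and a median of -0.32, led by Pax6. Nkx2-1, found in 28.0% of the progenitor-like cells, kept cells out of the Nr2f2/Prox1 group but not out of the Lhx6 group, so the groups were not chosen alike in this respect. When the Lhx6 cells with Nkx2-1 or Sst were also left out (260 cells stayed), 14 genes passed 2-fold on the Lhx6 side and 21 on the other, with Npy at a log2 fold of 2.25 and Sp8 at -1.75, and Mcm2, Mcm3 and Rrm2 among the 21. Of the 15 and 2 genes, 11 and 1 were still past 2-fold. Lhx8 (0.27), Etv1 (0.20), Adamts5 (0.81), Gria4 (0.72) and Meis2 (-0.74) were not, and Isl1 was at 0.014.

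Lhx8 was the one gene of the basal forebrain cholinergic list at 20 CPM, and the 3 immediate early and stress genes compared had a median of -0.11. Red-blood-cell genes summed to 600 CPM and 630 CPM, and glutamatergic genes to 90.1 CPM and 94.5 CPM, with Neurod6 in 6.80% and 7.76% of the cells. Cajal-Retzius, immune, vascular and oligodendrocyte-lineage lists had no gene at 20 CPM, and summed to 2.82 to 18.3 CPM in the Lhx6 cells and 5.05 to 19.7 CPM in the others. Their part in the differences was not tested beyond leaving out cells with a UMI of a glutamatergic, Cajal-Retzius, immune or vascular gene, which left 18 and 5 genes past 2-fold. These held 12 of the 15 and 1 of the 2 genes, without Ackr3, Efcab6, Tiparp and Meis2.

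Neuronal maturation genes were balanced, with 12 higher and 13 lower in the Lhx6 cells and a median of -0.01. Syt1, a synaptic calcium sensor (156 against 104 CPM, 0.54), Elavl2 (0.47) and Sox11 (5012 against 3675 CPM, 0.45) lay highest, and Rbfox1 (-0.61), Nefl (-0.55) and Snhg11 (-0.43) lowest. GABAergic genes outside the rule differed little, with 8 of 9 higher in the Lhx6 cells at a median of 0.13. The vesicular GABA transporter gene Slc32a1 was at 134 against 121 CPM (0.13).

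Of 22 migration and guidance genes compared, 16 were higher in the Lhx6 cells and 1 passed 2-fold (Ackr3), with a median of 0.12. Dclk2, a microtubule-binding relative of Dcx, was at 163 against 90.0 CPM (0.79). The ephrin ligand Efna5 was at 52.6 against 29.6 CPM (0.66), and the neuregulin receptor Erbb4 at 78.4 against 49.8 CPM (0.56). Cxcr4, the signalling receptor for Cxcl12, did not reach the minimum (18.3 and 13.1 CPM). Ntrk3 (-0.40) and Ephb1 (-0.34) lay on the other side.

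Adhesion and synapse-organiser genes (26 compared, median 0.05), transmitter receptor genes (11, median 0.02) and ion channel genes (10, median -0.02) stayed near the median of all genes. Within them, the protocadherin Pcdh17 (122 against 75.7 CPM, 0.62) and the AMPA receptor subunit Gria1 (54.9 against 32.8 CPM, 0.60) were on the Lhx6 side beside Gria4. Gria1 was at 81.5 CPM in Lhx6 cells with Sst and 38.6 CPM in those without, and the rule kept Sst out of the other group. Pcdh9 (57.7 against 88.6 CPM, -0.54) and the cannabinoid receptor Cnr1 (18.1 against 31.9 CPM, -0.58) were on the Nr2f2/Prox1 side. Kcnc2, a channel subunit of fast-spiking cells, was under the minimum, at 9.15 CPM (39 UMIs) against 1.15 CPM (5 UMIs).

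Of the Tox factors, Tox2 and Tox were higher in the Lhx6 cells, and Tox3 and Tox4 nearly level. Tox2 reached 51.2 CPM (44.6 to 58.4) in Lhx6 cells and 20.7 CPM (16.6 to 25.4) in the others, found in 24.6% and 10.4% of the cells (15.3% and 5.51% after thinning), and its log2 fold of 0.997 was just under the line. Rprm, Ackr3 and Gria4, at 1.08, 1.02 and 1.01, were just over it. Tox was at 75.3 against 36.7 CPM (0.87). Hmx2 and Hmx3, homeodomain factors of the POA, were nearly absent from both groups, with 1 and 11 UMIs of Hmx2 and 0 and 3 of Hmx3.

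Within the Lhx6 cells, those with and without an Nr2f2 UMI (424 and 252 cells, median 5711 and 4811 UMIs) were alike: 5 of 6475 genes (0.0772%) passed 2-fold in either direction. Without Nr2f2, Lhx8 was higher (44.1 against 9.84 CPM), as was Calb2 of the CGE-lineage list (30.4 against 9.84 CPM, log2 fold -1.03). Isl1 (69.3 against 28.2 CPM) and Etv1 (97.4 against 44.8 CPM, log2 fold -0.97) were also higher without it. Isl1 was found in 11.9% of cells without Nr2f2 and 10.1% of those with it (8.48% and 5.04% after thinning). With Nr2f2, the protocadherin Pcdh7 (log2 fold 1.06) and Neurod2 (1.05, 26.5 against 7.61 CPM) passed 2-fold. Neurod2 and Neurod6 (32.2 against 12.9 CPM, 0.88) were the glutamatergic genes compared, and the part of such RNA was not tested. Nr2f2's relative Nr2f1 (500 against 272 CPM, 0.85) and Satb1 (117 against 70.0 CPM, 0.67) were higher. Npy was at 375 CPM with Nr2f2 and 444 CPM without, and Maf at 140 and 157 CPM, so both kinds of Lhx6 cells carried these genes well above the 50.0 and 42.9 CPM of the Nr2f2/Prox1 cells.

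The number of Lhx6 UMIs mattered less: between 286 cells with 2 or more and 390 with 1, only Calb2 passed 2-fold (27.6 against 5.46 CPM), 0.0154% of 6497 genes. Npy was at 379, 484 and 354 CPM in cells with 1, 2 and 3 or more Lhx6 UMIs, and Maf at 129, 192 and 135 CPM. Nkx2-1 was at 154, 243 and 345 CPM in the same order. Cells with 2 or more Lhx6 UMIs were deeper than those with 1 (median 5849.5 against 4908.5 UMIs), and depth was not set equal. Cells with 1 Lhx6 UMI, the weakest evidence the rule allows, had Npy and Maf at levels near those of the rest, with more Isl1 (54.6 against 26.2 CPM) and Ebf1 (225 against 117 CPM).

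The split by Nkx2-1 held more genes past 2-fold than the comparison of the groups themselves. Of 6543 genes compared between 273 Lhx6 cells with an Nkx2-1 UMI and 403 without, 70 (1.07%) passed 2-fold, 63 higher with Nkx2-1 and 7 lower. All 14 cell-cycle genes were higher with Nkx2-1, 7 past 2-fold, at a median of 1.10 beside 0.002 for all genes. Cenpf, a kinetochore gene, reached 318 CPM (293 to 344) with Nkx2-1 and 97.2 CPM (85.0 to 111) without. Cells with Nkx2-1 were deeper (median 5768 against 5049 UMIs), and depth, which raises the chance of a UMI, was not set equal here.

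Of 13 MGE-lineage genes, 5 were higher with Nkx2-1 and 8 lower, at a median of -0.06. Maf was at 116 against 168 CPM, found in 35.9% and 47.4% of the cells. Etv1 was at 108 against 23.0 CPM (1.83) and Lhx8 at 38.1 against 5.97 CPM (1.59). Zic1 was at 27.7 against 6.40 CPM (1.20). Lower with Nkx2-1 were Nrp2, a semaphorin receptor of cortex-bound interneurons (32.9 against 86.5 CPM, -1.17), Isl1 (20.4 against 57.6 CPM), Ebf1 (107 against 226 CPM), Tac1, Cxcl14 and the noncoding RNA Snhg11. Isl1 was found in 9.89% of cells with Nkx2-1 and 11.4% of those without (4.21% and 7.78% after thinning). Of 25 maturation genes, 22 were lower with Nkx2-1, at a median of -0.31, as were 23 of 26 adhesion genes (-0.27) and 9 of 10 ion channel genes (-0.37). Npy was level, at 419 and 378 CPM.

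**Figure D4:**
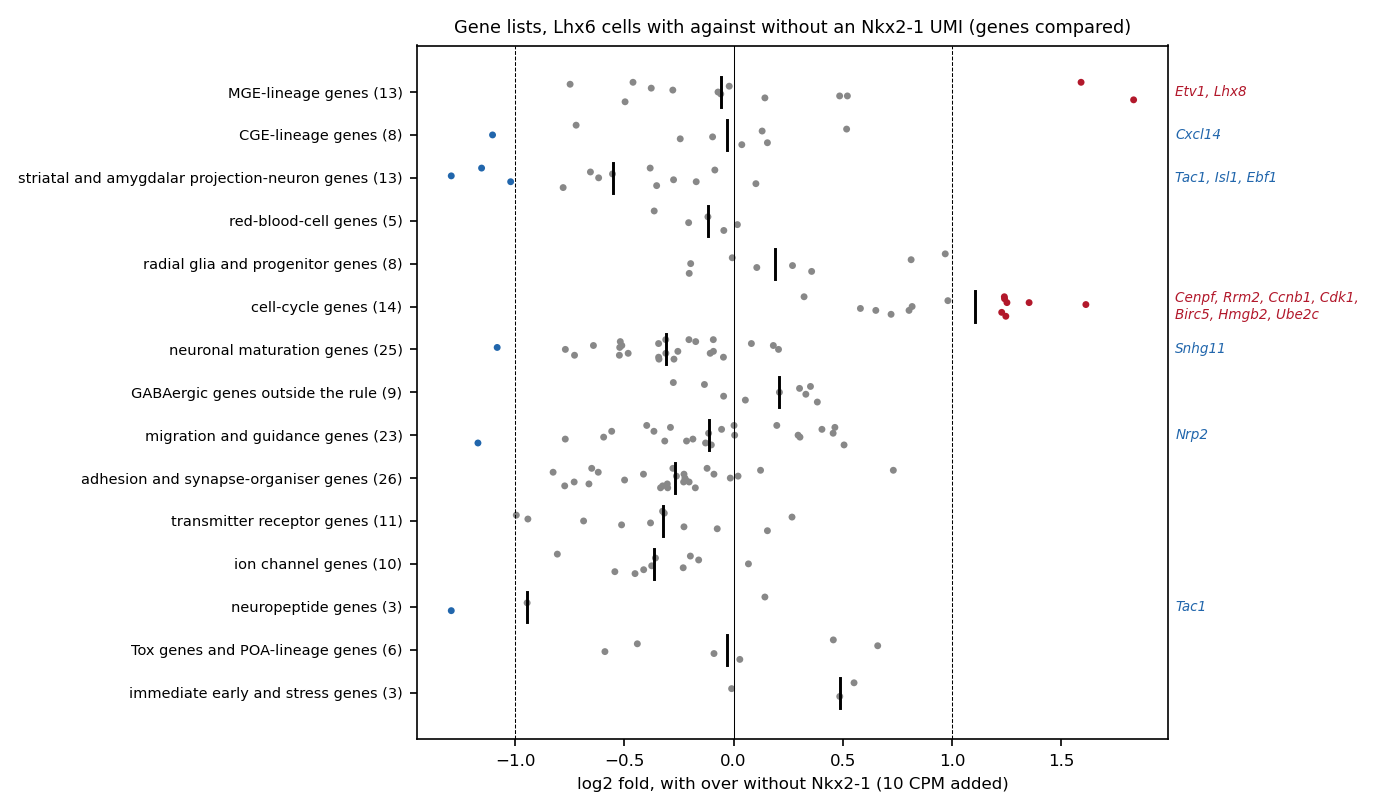
Log2 fold of Lhx6 cells with an Nkx2-1 UMI over those without (10 CPM added) for each gene compared, by list, with the number of genes in brackets; lists of under 3 genes are not drawn. Black bars are medians, dashed lines mark 2-fold and genes past it are named at the right (red, higher with Nkx2-1; blue, lower). All 14 cell-cycle genes lie to the right of zero, at a median of 1.10.

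Lhx6 cells with Sst (225) differed from those without (451) past 2-fold in 2 of 6521 genes (0.0307%). These were Ptprt, a receptor phosphatase (23.5 against 6.06 CPM), and Pnoc, the nociceptin precursor (25.9 against 7.57 CPM). Satb1 (149 against 74.2 CPM, 0.92), Npy (535 against 311 CPM, 0.76) and Nxph1 (204 against 129 CPM, 0.63) were also higher with Sst, as were the glutamatergic genes Neurod6 (40.8 against 17.4 CPM, 0.89) and Neurod2 (30.9 against 14.4 CPM, 0.75), whose part was not tested. All 14 cell-cycle genes were lower (median -0.33) and all 27 adhesion genes higher (median 0.31), the order opposite to that for Nkx2-1. Cells with Sst were also deeper (median 5813 against 5025 UMIs), and depth was not set equal.

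Within the Nr2f2/Prox1 cells, 292 with Prox1 and 468 with Nr2f2 alone differed past 2-fold in 9 of 6551 genes (0.137%). Cells with Nr2f2 alone had more Ebf1 (347 CPM, 324 to 371, against 123 CPM, 108 to 140), Isl1 (93.3 against 41.8 CPM) and Foxp1 (154 against 77.0 CPM), and 13 of 14 projection-neuron genes were higher in them (median -0.59). Isl1 differed less in share, found in 14.7% of cells with Nr2f2 alone and 15.4% of cells with Prox1 (10.7% and 8.86% after thinning). Cells with Prox1 had more Htr3a (562 CPM, 528 to 597, against 328 CPM, 307 to 351; log2 fold 0.76) and Nfix (122 against 61.0 CPM, 0.89), and all 14 cell-cycle genes were higher in them (median 0.37). Sp8 was at 112 CPM (97.3 to 129) and 93.3 CPM (81.8 to 106), so it did not separate them beyond counting error. Npy was low in both, at 44.0 and 54.3 CPM. Cells with Prox1 were deeper than those with Nr2f2 alone (median 5572.5 against 5133.5 UMIs), and depth was not set equal.

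The rule was applied unchanged to the POA library, a dissection of another region. Whether its embryos differed from those of the CGE library was not given in the sources used here. Of 6766 genes compared there, 70 were at least 2-fold higher in the 285 Lhx6 cells (1.03%) and 25 in the 152 Nr2f2/Prox1 cells (0.369%), more than in the CGE library, but on fewer UMIs (2924202 and 1140942), which widens the counting error. Lhx8 was strong (168 against 21.9 CPM, log2 fold 2.48), and Sox6 lay at 1.65 (87.2 against 21.0 CPM). All cell-cycle genes but Mcm2 were higher in the POA Lhx6 cells, 13 of 14 with a median of 1.11, where the CGE median was -0.31. By the rule no Nr2f2/Prox1 cell had Nkx2-1, which was in 83.2% of POA Lhx6 cells and 40.4% of CGE Lhx6 cells. Between CGE Lhx6 cells with and without Nkx2-1 the cell-cycle median was 1.10. The part of this unequal choice of cells in the POA values was not tested. The globin gene Hbb-y was at 710 against 127 CPM in the POA and at 102 against 96.2 CPM in the CGE, and its part in the POA values was not tested.

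Of the 12 leading genes of the Lhx6 side, 11 had a log2 fold above zero in the POA and 4 passed 2-fold (Npy, Lhx8, Etv1 and Dlgap1), with medians of 1.28 in the CGE and 0.65 in the POA. Over all 6446 genes the log2 folds of the libraries were only weakly related (Spearman 0.12, Pearson 0.14, across genes, which are not replicates), with the same sign in 54.9% of them. Npy reached 111 CPM (99.4 to 124) in the POA Lhx6 cells, with 48.2 CPM (36.3 to 62.7) in the other group, and its log2 fold was 1.06 in the POA and 2.76 in the CGE. Maf was at 17.1 and 16.7 CPM in the 2 POA groups, so it did not differ there beyond counting error. It was counted among the 11, since the 20 CPM minimum was not applied to these counts of signs. Of the 12 on the other side, 11 were below zero and 3 passed 2-fold (Meis2, Tac1 and Isl1), with medians of -0.86 and -0.39. Meis2 was at 209 against 74.6 CPM and Isl1 at 253 against 101 CPM. Tox2 was at 41.0 against 48.2 CPM in the POA (log2 fold -0.19), beside 51.2 against 20.7 CPM in the CGE.

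**Figure D5:**
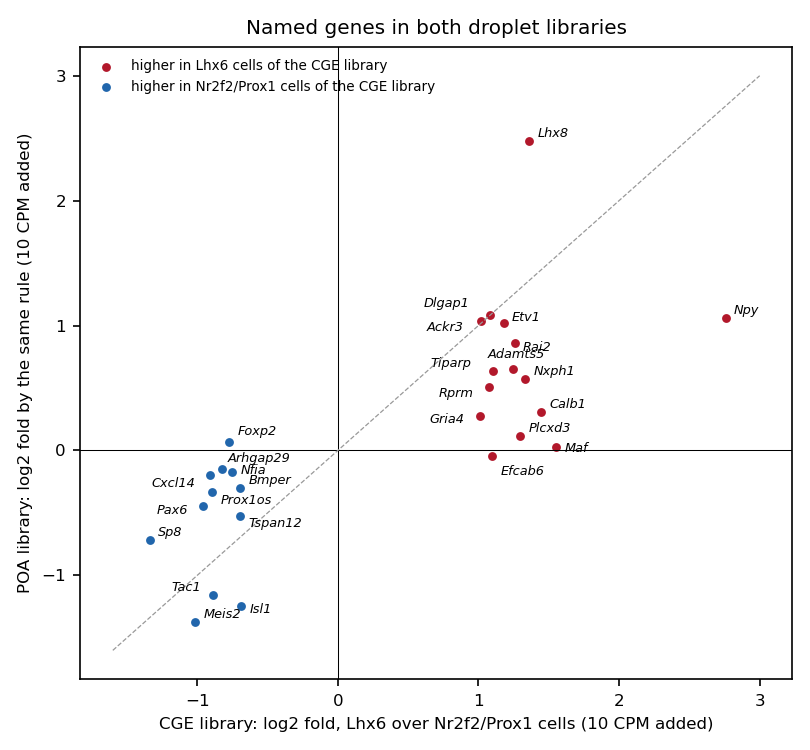
Log2 fold of Lhx6 over Nr2f2/Prox1 cells (10 CPM added) in the CGE library (x) and by the same rule in the POA library (y), for the genes named or past 2-fold in the CGE (red, higher in Lhx6 cells; blue, higher in Nr2f2/Prox1 cells); the dashed line marks equal folds. Lhx8 lies above the line at 2.48, and Npy (1.06) and Maf (0.02) well below it.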

How the data were processed

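Droplet RNA sequencing (10x) of the CGE and POA at E14.5 was used. Per the labels, reads were aligned to mm10 and counted with Cell Ranger; per the methods, the authors dropped cells with few genes or many mitochondrial reads and removed clusters of vascular, blood, Cajal-Retzius, immune and glutamatergic cells. The deposited values are raw UMI counts per gene and cell, not normalized. The 4115 CGE cells held at least 1121 genes each and at most 14.8% mitochondrial counts. The methods give fewer CGE cells recovered than these cells kept, which was not settled here. The labels and one part of the methods name C57BL/6 mice, and another part of the methods a second strain, for droplet experiments.

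Members and gene lists were chosen with earlier results of these data known. Counts were summed per group and divided by the group's total (CPM, all 17807 genes). Log2 folds had 10 CPM added. Genes under 20 CPM in both groups and the 19 rule genes were left out, and a gene past 2-fold was called. Both groups come from 1 library, so there is no replicate check and no test. For shares, cells were also thinned to 2970 UMIs, the 10th percentile of both groups, which left out 55 Lhx6 cells and 88 Nr2f2/Prox1 cells. Named genes were the 12 with the largest log2 fold in each direction, list members past 2-fold and the 2 members of each list with the largest fold each way; other genes named, among them Ebf1, Foxp1, Kcnc2, Nts, Tox2 and Hmx2, were chosen after their values were seen. Gene positions are from GENCODE M21 and promoters from RefSeq, both on GRCm38. No doublet caller was run, and leaving out the top 5% of neurons by UMIs was an alternative. The scripts, run in Python 3.11.15 with pandas 2.3.3, scipy 1.17.1 and numpy 2.4.6 (figures: matplotlib 3.10.9), were tested on simulated data. The list genes Vip, Drd2, Chat, Grin2d and Kcnk9 were not analysed here. The alternative that left Nkx2-1 and Sst out of both groups was chosen after seeing the data.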

Additional observations from a re-analysis of the deposited data

Results flagged for a closer look

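Of the 15 genes at least 2-fold higher in the CGE Lhx6 cells, Efcab6 was the one with the other sign in the POA library. Its log2 fold was 1.10 in the CGE and -0.046 in the POA, where it rested on 9 UMIs in the Lhx6 cells and 4 in the Nr2f2/Prox1 cells. The difference between the libraries was not tested.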

How the results depend on the processing

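No paired analysis was possible because both groups came from 1 library and no test was made. The count of genes at least 2-fold higher in the Lhx6 cells was 15; it was 25 with 1 CPM added and 1 with 100 CPM added, 9 with cells grouped after thinning, 26 for Lhx6 cells without Nr2f2 and 367 for cells with no UMI of the progenitor genes (52 and 51 cells). Under the other 13 settings it was 12 to 22. The count on the Nr2f2/Prox1 side was 2; it was 4 by the mean of single-cell CPM, 7 with cells thinned, 9 with 1 CPM added, 0 with 100 CPM added, 4 with cells grouped after thinning, 4 with 2 or more marker UMIs, 7 for Lhx6 cells without Nr2f2, 9 for Nr2f2/Prox1 cells with Prox1, 5 for those with Nr2f2 and no Prox1, and 397 for cells with no progenitor-gene UMI. It was 4 without the top 5% of neurons by UMIs, 5 without cells with other-cell-type genes, 8 without cells with Isl1, Ebf1 or Foxp1, and 21 for Lhx6 cells without Nkx2-1 and Sst, an alternative chosen after seeing the data. A larger added value shrinks folds by construction, and few cells widen them; otherwise the cause was not tested. Over 18 settings Npy had log2 folds of 1.73 to 3.35, Maf of 0.78 to 1.86, Sp8 of -2.32 to -0.59 and Meis2 of -1.94 to -0.74. Of 27 genes named or past 2-fold, Tac1 and Isl1 changed sign under 2 settings each, and Tspan12 and Bmper under 1 each.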
